A study of Mus musculus with 8 samples.

Results

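The 35 genes described here are a fixed list of endothelial identity genes, the junction proteins, receptors, secreted factors and transcription factors that distinguish the cells lining blood vessels. They were followed in sorted tumour macrophages. Every one of the 35 had at least 1 probe set annotated with its symbol alone, out of 18193 genes measured this way, and each was represented by its probe set with the highest mean over the 8 arrays. The macrophages were F4/80+ cells sorted from mammary tumours of FVB mice aged 80 days, and their total RNA was read on Affymetrix arrays. Every mouse had PyMT, a polyomavirus oncogene that drives mammary tumours, and floxed E2f3 (f/f). The E2f3-deleted group, labelled PyMT;Lys Cre:E2f3 f/f (4 arrays, replicates A, E, F and H), also had Lys Cre, a recombinase expressed under lysozyme control in myeloid cells. The control group, labelled PyMT;E2f3 f/f (4 arrays, replicates B, C, D and G), had the floxed allele without Cre, and no group had Cre without the floxed allele, so Cre and loss of E2f3 cannot be told apart. Nothing in the labels says whether arrays came from separate animals or pools, and the p-values given here reflect only array-to-array spread, which may be technical.

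Endothelial cells hold together through adherens and tight junctions built on VE-cadherin (Cdh5) and claudin 5 (Cldn5). Their identity is set by ETS factors such as Erg and Fli1 and by the SoxF factors Sox7, Sox17 and Sox18, while Tal1 and Lmo2 act in the common origin of blood and endothelium. In tumours, macrophages lie close to vessels and take part in their growth. Several of the 35 genes are also used by blood cells, macrophages and platelets among them.

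Most of the endothelial genes had higher signals in the E2f3-deleted arrays, with a median log2 difference of 1.10, but the size differed widely between the 4 arrays and no gene passed the test over all genes. Of the 35, 32 had a difference above 0 (E2f3-deleted minus control, log2), where 41.8% of all 18193 genes did. That count includes Stab2 at 0.00. The median over all genes was −0.02. Of the 35 differences, 21 were at least 1 log2 unit, against 1.53% of all genes. At an unadjusted p under 0.05 in limma, 23 of the 35 were higher and 0 lower, against 6.05% of all genes higher. In 10 of the 35 the 4 E2f3-deleted values all lay above the 4 control values, against 3.37% of all genes. Adjustment was over the 10916 genes whose mean signal passed a filter at the 40th percentile (log2 6.0). Of these, 0 genes of any kind were called (0%, limma, adjusted p under 0.05). The smallest limma adjusted p among the endothelial genes was 0.158 in that fit and 0.186 in a fit without the filter. Whether endothelial cells, the macrophages themselves or other cells gave these signals was not tested. In these sorted cells, more cells of a kind and more RNA per cell cannot be told apart.

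The filter left 29 of the 35, of which 26 were higher. Emcn, Robo4, Erg, Sox18, Sox7 and Clec14a passed it only through their E2f3-deleted arrays, since their control means lay under log2 6.0, so the counts above are over all 35, from a fit without the filter. Pecam1, Cdh5, Nos3, Rasip1, Mmrn1 and Stab2 lay under the filter, and their values are from that fit. Adjusted p-values of genes that passed the filter are from the filtered fit. Without the filter, the limma adjusted p was 0.186 for Sox7 and Clec14a and 0.277 for Erg. Since no gene passed the adjusted threshold in the full set of arrays, "higher" and "lower" describe group means.

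E2f3 itself had log2 signals of 7.65, 7.54, 7.53 and 7.79 in replicates A, E, F and H (E2f3-deleted), against 7.66, 7.63, 7.83 and 7.58 in control replicates B, C, D and G, a difference of −0.05 (SE 0.0823). Where its probe set lies relative to the deleted part is not stated in the labels, so it does not check them. The genes of the sorted cells were present: Adgre1, which encodes F4/80, averaged 12.69 ± 0.068 in E2f3-deleted arrays and 12.88 ± 0.078 in controls, and the macrophage receptor Csf1r 14.33 in both groups. Replicate H stood apart, with a mean correlation of 0.983 with the rest of its group, against 0.990 to 0.991 for the other E2f3-deleted arrays and 0.994 to 0.995 for the controls. The Gapdh signal near the 3′ end minus that near the 5′ end, a measure of RNA integrity, was 1.87, 1.48, 1.59 and 1.73 in the E2f3-deleted group (A, E, F and H) and 1.53, 1.47, 1.39 and 1.42 in replicates B, C, D and G, and its part in the results was not tested. The scan files are lettered differently from the sample titles. In sample order, their letters run from A to D over the controls and from E to H over the E2f3-deleted arrays. Were the file letters the true ones, replicate F of the E2f3-deleted group and replicate B of the controls would change places. In that grouping the median of the 35 genes was 0.08, 23 of 35 were above 0 and 0 had an unadjusted p under 0.05 (limma, 0 after adjustment), so every direction given here rests on the titles.

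**Figure D1:**
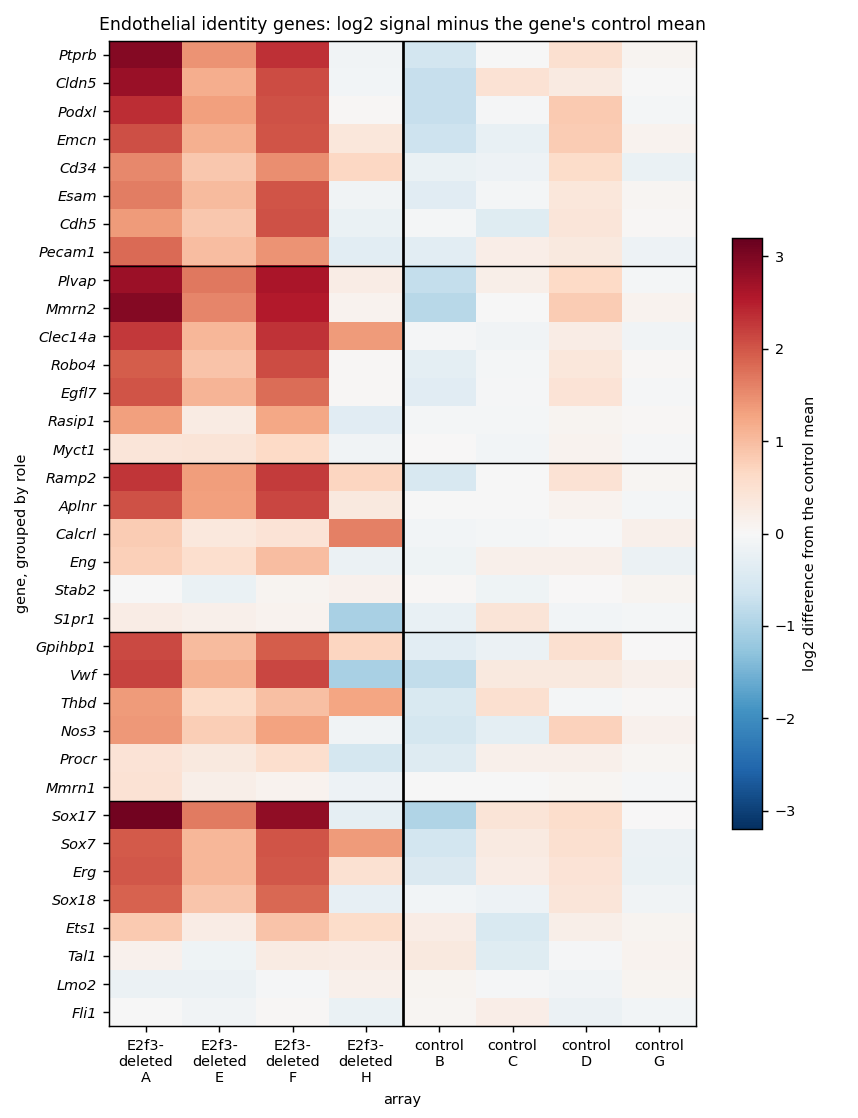
Colour gives the log2 signal of each of the 35 genes (rows, grouped by role) on each of the 8 arrays (columns) minus that gene's mean over the 4 control arrays. Replicates A and F are the reddest columns, replicate E is paler in most rows, and replicate H is mixed, with Calcrl at 1.60 and S1pr1 at −1.04.

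Genes of cell junctions, adhesion and the sugar coat of the vessel wall formed the most uniform group. All 8 were higher (41.8% of all genes), each with an unadjusted p under 0.05 (6.05% of all genes, higher). Their median difference was 1.26, with a range of 0.98 to 1.66. Ptprb, the phosphatase VE-PTP that acts on VE-cadherin and Tie2, had log2 signals of 10.34, 8.83, 9.74 and 7.29 in E2f3-deleted arrays A, E, F and H, against 6.80, 7.38, 7.91 and 7.49 in control replicates B, C, D and G. Replicates A, E and F lay above every control, and H below 3 of the 4. The difference was 1.66 (SE 0.606, adjusted p = 0.293). Its second bright probe set gave 1.74.

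Cldn5, the main claudin of endothelial tight junctions, had signals of 9.46, 7.86, 8.79 and 6.62 in replicates A, E, F and H, against 5.98, 7.16, 6.99 and 6.70 in controls B, C, D and G. Replicate H lay within the control range, and the group difference was 1.48 (SE 0.578, adjusted p = 0.313). Podxl, a sialomucin of the luminal surface, differed by 1.44 (SE 0.529) and Emcn, the mucin endomucin, by 1.39 (SE 0.443). A dimmer probe set of Podxl, at a mean of 4.998, differed by 0.40. Esam, an adhesion molecule of endothelial tight junctions and platelets, differed by 1.13 (SE 0.424). These 3 had the same order of E2f3-deleted arrays in one respect, with H the lowest.

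Cdh5 and Pecam1 are the defining genes of endothelial junctions, and both were dim. Cdh5 had signals of 6.57, 6.07, 7.25 and 5.0 in replicates A, E, F and H, against 5.16, 4.83, 5.61 and 5.24 in B, C, D and G, a difference of 1.01 (SE 0.425, adjusted p = 0.407). Its other probe set, at a mean of 3.59, differed by −0.21. Pecam1, the platelet and endothelial adhesion molecule CD31, had 6.69, 5.86, 6.31 and 4.54, against 4.53, 5.07, 5.18 and 4.70, a difference of 0.98 (SE 0.421, adjusted p = 0.413). For both, replicate H lay inside the controls and the other E2f3-deleted arrays did not.

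Cd34, a sialomucin of endothelium and blood progenitors, separated the groups completely. Its signals were 9.84, 9.17, 9.79 and 8.97 in E2f3-deleted arrays A, E, F and H, against 8.08, 8.14, 8.89 and 8.10 in control replicates B, C, D and G. Control D lay just below replicate H. The gene was 2.20-fold higher (log2 1.14, SE 0.256, 95% confidence interval 0.55 to 1.72, adjusted p = 0.186).

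Genes of the vessel matrix, sprouting and lumen were higher in 7 of 7 (41.8% of all genes), with a median of 1.24. Of these, 5 had an unadjusted p under 0.05 (6.05% of all genes, higher). Clec14a, a lectin of the endothelial surface that binds the matrix protein Mmrn2, had the smallest p of the 35 genes. Its signals were 7.82, 6.62, 7.88 and 6.93 in replicates A, E, F and H, against 5.53, 5.45, 5.80 and 5.46 in controls B, C, D and G, with no overlap. It was 3.36-fold higher (log2 1.75, SE 0.284, interval 1.10 to 2.40, adjusted p = 0.158). A dimmer probe set of the gene again placed all 4 E2f3-deleted arrays above the controls, with 6.69, 5.85, 7.03 and 6.23, against 4.35, 4.10, 4.91 and 4.38.

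Its binding partner Mmrn2 spread further. Signals of 11.55, 10.18, 11.15 and 8.73 in replicates A, E, F and H stood against 7.73, 8.59, 9.41 and 8.71 in controls B, C, D and G, a difference of 1.79 (SE 0.618, adjusted p = 0.279). Replicate H was between controls G and D, where for Clec14a it was above all controls. Plvap, which forms the diaphragms of fenestrae and caveolae, had 10.95, 9.90, 10.82 and 8.44, against 7.46, 8.41, 8.84 and 8.14, a difference of 1.82 (SE 0.558, adjusted p = 0.253). All 4 probe sets of Mmrn2 were higher, by 0.67 to 1.79.

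Robo4, a roundabout receptor of endothelium, differed by 1.24 (SE 0.430) and Egfl7, a secreted factor of developing vessels, by 1.23 (SE 0.405). The 4 probe sets of Egfl7 gave 0.60 to 1.46. Rasip1, a Ras-interacting protein needed for lumen formation, was under the filter with a difference of 0.61 (SE 0.344), and Myct1 had 0.33 (SE 0.151). Myct1 shows how the choice of probe set can matter, since its dimmer probe sets had 0.24, 1.14 and 1.52.

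Promoter sequence is shown for 3 genes that were highest in replicates A and F, Cd34, Egfl7 and Clec14a, because ETS factors, 3 of them among the 35 genes, bind sites built on a GGAA core. Each line gives the 150 bases just before a RefSeq start site in GRCm38.p6, 5′ to 3′ on the strand of the gene, and capitals mark a match to CAGGAAG or CCGGAAG on either strand. The Cd34 stretch is chr1:194938671-194938820 (+ strand), that of Egfl7 chr2:26580933-26581082 (+ strand, the first of 3 start sites) and that of Clec14a chr12:58269259-58269408 (− strand).
Cd34: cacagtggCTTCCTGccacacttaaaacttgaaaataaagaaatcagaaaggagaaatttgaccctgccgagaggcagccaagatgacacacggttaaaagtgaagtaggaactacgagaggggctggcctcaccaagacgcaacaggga
Egfl7: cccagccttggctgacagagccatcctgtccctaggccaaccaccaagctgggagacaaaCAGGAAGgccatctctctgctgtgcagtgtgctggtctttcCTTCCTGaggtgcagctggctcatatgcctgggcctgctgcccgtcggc
Clec14a: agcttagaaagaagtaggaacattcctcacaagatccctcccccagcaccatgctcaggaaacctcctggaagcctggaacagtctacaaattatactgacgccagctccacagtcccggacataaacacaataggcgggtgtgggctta

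The Cd34 match begins 142 bases before the start site and those of Egfl7 90 and 49 bases before it. The Clec14a stretch has GGAA cores but no match to the longer strings searched. For Egfl7, the stretch at chr2:26583715-26583864 had 1 match, 81 bases before its start site, and that at chr2:26586486-26586635 had 0. The sequence table held 20 windows (250 bases before to 50 after a start site) for 15 of the 35 genes. An ETS match was found in 8 of the 20 windows, against 20.9% of all 32851 windows. A SOX match (ACAAAG or ACAATG) was in 25.0% of them against 28.6% of all, a GATA match (AGATAA) in 15.0% against 11.2%, the TAL1 E-box CAGATG in 15.0% against 17.2% and an E2F match (TTTNNCGC) in 15.0% against 5.2%. Both strands were searched, the motifs of different factors were counted separately even where they overlapped, and 15.0% is 3 windows. These are counts of letters in the windows and say nothing of binding.

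Among the receptors, 5 of 6 were above 0 (41.8% of all genes), including Stab2, with a median of 0.65. Of the 6, 3 had an unadjusted p under 0.05 (6.05% of all genes, higher). Ramp2 and Calcrl together form the adrenomedullin receptor, with Ramp2 carrying Calcrl to the surface. Ramp2 had signals of 9.33, 8.39, 9.29 and 7.73 in E2f3-deleted arrays A, E, F and H, against 6.53, 7.04, 7.51 and 7.12 in control replicates B, C, D and G, with no overlap, and was 3.11-fold higher (log2 1.64, SE 0.375, adjusted p = 0.188). Calcrl had 7.80, 7.32, 7.42 and 8.60, against 6.90, 6.94, 6.98 and 7.16, also with no overlap (log2 0.78, SE 0.258, adjusted p = 0.270). Its dimmer probe sets, at means of 3.96 and 2.997, differed by 0.0 and 0.08. The partners ordered replicates A, F and E alike, from high to low, but differed in replicate H. It was the lowest E2f3-deleted array for Ramp2 and the highest for Calcrl. Without replicate H the difference of Calcrl was 0.51 and that of Ramp2 1.95.

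Aplnr, the apelin receptor of sprouting vessels, had the tightest controls of the receptors. Signals of 10.11, 9.39, 10.21 and 8.38 in replicates A, E, F and H stood above 8.05, 8.06, 8.18 and 8.01 in controls B, C, D and G, a difference of 1.45 (SE 0.366, interval 0.61 to 2.29, adjusted p = 0.208). A dimmer probe set of Aplnr, at a mean of 6.87, differed by 0.76. There replicate H, at 6.46, lay inside the control range of 6.17 to 6.67. Eng, a co-receptor of the TGF-beta family found on endothelium and macrophages, differed by 0.52 (SE 0.240), and its second probe set by 0.99. S1pr1, the sphingosine phosphate receptor of endothelium and lymphocytes, had 8.30, 8.23, 8.17 and 7.02, against 7.83, 8.47, 7.97 and 7.99, a difference of −0.13 (SE 0.290, adjusted p = 0.846). The sign rested on single arrays: it was 0.17 without replicate H and 0.00 without control replicate C. Stab2, a scavenger receptor of sinusoidal endothelium, was dim on all arrays, from 4.79 to 5.13 in E2f3-deleted and 4.86 to 5.09 in control arrays.

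Genes that face the blood, in clotting, vessel tone and lipid handling, were above 0 in 6 of 6 (41.8% of all genes, median 0.94). Of these, 2 had an unadjusted p under 0.05 (6.05% of all genes, higher). Gpihbp1, which holds lipoprotein lipase on capillaries, had signals of 8.92, 7.83, 8.75 and 7.50 in replicates A, E, F and H, against 6.47, 6.61, 7.33 and 6.82 in controls B, C, D and G. The groups did not overlap, and the gene was 2.72-fold higher (log2 1.44, SE 0.342, adjusted p = 0.196). Thbd, the thrombin receptor that starts protein C activation, had 8.39, 7.65, 8.0 and 8.30, against 6.54, 7.55, 6.97 and 7.08, a difference of 1.05 (SE 0.232, adjusted p = 0.186). Procr, the protein C receptor that acts with it, differed by 0.17 (SE 0.248, interval −0.40 to 0.74, adjusted p = 0.761).

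Vwf, the platelet-binding protein stored by endothelium and platelets, was split by replicate H. It had signals of 9.77, 8.72, 9.74 and 6.55 in replicates A, E, F and H, against 6.80, 7.91, 7.91 and 7.76 in controls B, C, D and G. Replicate H gave the lowest of the 8 values and replicates A, E and F the 3 highest. The difference was 1.10 (SE 0.692, adjusted p = 0.490), and 1.82 (SE 0.354, adjusted p = 0.0873) without replicate H. Nos3, endothelial nitric oxide synthase, was under the filter with 0.83 (SE 0.380), and Mmrn1, a multimerin of platelets and lymphatic endothelium, was dim with 0.15 (SE 0.119).

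The transcription factors divided into a group that was higher and a group near 0. Of the 8, 6 were above 0 (41.8% of all genes) and 5 had an unadjusted p under 0.05 (6.05% of all genes, higher). Their median was 0.87. Sox7 had signals of 7.61, 6.73, 7.68 and 7.03 in E2f3-deleted arrays A, E, F and H, against 5.07, 5.94, 6.16 and 5.47 in control replicates B, C, D and G, without overlap. It was 3.04-fold higher (log2 1.60, SE 0.292, interval 0.93 to 2.27, adjusted p = 0.158). A dimmer probe set of Sox7, at a mean of 4.74, differed by −0.06. Sox17, a SoxF factor of arteries, had 9.55, 8.12, 9.30 and 6.17, against 5.49, 6.87, 7.03 and 6.47, the largest difference of the 35 genes with Plvap (1.82, SE 0.729, adjusted p = 0.323) and the largest error. That rank holds for the probe set used, since a dimmer probe set of Sox17, at a mean of 5.225, differed by 0.81. Sox18, the third SoxF factor, differed by 1.09 (SE 0.451). Replicate H was the lowest E2f3-deleted array for Sox17 and Sox18, and for Sox7 it was above replicate E.

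Erg, the ETS factor most restricted to endothelium, had 7.74, 6.81, 7.73 and 6.23 in replicates A, E, F and H, against 5.28, 6.0, 6.20 and 5.54 in B, C, D and G. The lowest E2f3-deleted value, in H, lay just above the highest control, in D, and the difference was 1.37 (SE 0.369, adjusted p = 0.218). A dimmer probe set of Erg, at a mean of 5.37, differed by 0.16. Ets1, an ETS factor of endothelium and lymphocytes, had 9.96, 9.37, 10.04 and 9.71, against 9.35, 8.63, 9.31 and 9.20, a difference of 0.65 (SE 0.198, adjusted p = 0.253), and its second bright probe set gave 0.68. Fli1, an ETS factor shared by endothelium, megakaryocytes and macrophages, differed by −0.08 (SE 0.0967, interval −0.30 to 0.15).

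Lmo2 and its partner Tal1, which bind DNA in one complex in blood and endothelial development, had differences of −0.07 (SE 0.0892, interval −0.27 to 0.14) and 0.12 (SE 0.158, interval −0.24 to 0.49). Lmo2 had a mean of 11.33 ± 0.160 in E2f3-deleted arrays and 11.39 ± 0.0880 in controls (SD, n = 4 each). For Fli1, Lmo2 and Tal1, median centring of the arrays, which shifted the median difference of all tested genes to −0.129 from −0.028, moved no sign.

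**Figure D2:**
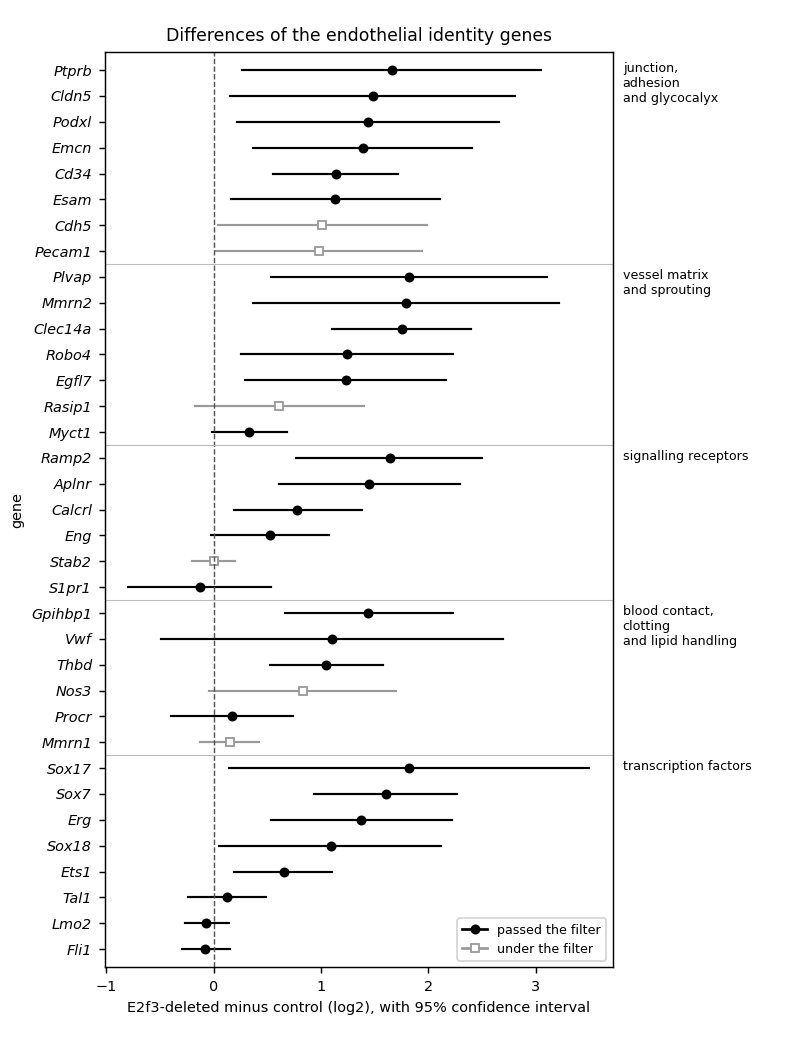
Points are E2f3-deleted minus control differences on the log2 scale with limma 95% confidence intervals for the 35 genes, grouped by role, filled where the gene passed the filter and open where it did not. Intervals are widest for Sox17 (0.14 to 3.50) and Vwf (−0.49 to 2.69) and narrowest around 0 for Fli1, Lmo2 and Stab2.

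Most of the 35 genes shared an order of arrays inside each group, with exceptions such as Calcrl, Lmo2 and Stab2, which were highest in replicate H. Their median distance from the control mean was 1.82, 0.91, 1.84 and 0.05 in E2f3-deleted arrays A, E, F and H, and −0.34, −0.03, 0.31 and 0.01 in control replicates B, C, D and G. Replicates A and F both exceeded replicate E in 32 of the 35 genes (91.4%), where 35.3% of all genes did. Replicate H was the lowest E2f3-deleted array in 27 of 35 (77.1%), against 38.4% of all genes, and replicate E in the other 8. In the controls, replicate B was the lowest in 22 of 35 (62.9%, against 22.7% of all genes) and replicate D exceeded replicate B in 30 (85.7%, against 45.5%). These are descriptions of 8 arrays, and genes on one array share its cells and its RNA.

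Replicates A, E and F all lay above the 4 controls in 30 of the 35 genes, against 6.44% of all genes. The exceptions were S1pr1, Fli1, Tal1, Lmo2 and Stab2. Replicate H was above every control in 12 of the 35, below every control in 9 and among them in 14. Its 12 were Erg, Sox7, Clec14a, Cd34, Gpihbp1, Aplnr, Ramp2, Calcrl, Ets1, Lmo2, Stab2 and Thbd. Relative to the control mean, Calcrl was at 1.60 in replicate H, Sox7 and Clec14a at 1.37 each and Thbd at 1.26, while Vwf was at −1.05, S1pr1 at −1.04 and Procr at −0.56. On this array mast cell markers had a median of 3.59 above the control mean and fibroblast markers 1.94, and their part in the values of these genes was not tested.

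**Figure D3:**
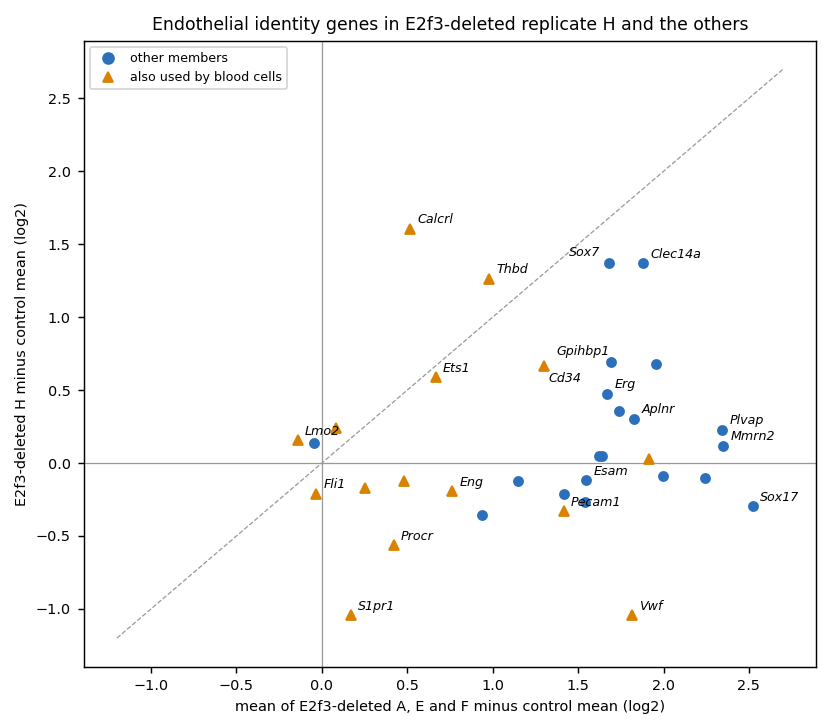
Each point is 1 of the 35 genes, with the mean of E2f3-deleted replicates A, E and F minus the control mean on the x axis and replicate H minus the control mean on the y axis, both in log2 units; triangles mark genes also used by blood cells and the dashed line equal values. Calcrl and Thbd lie above the line, Sox7 and Clec14a just under it, and Vwf far under it at −1.05.

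A split of the list by use in blood cells gave unequal groups. The 20 genes left outside the blood cell list, which include Esam although platelets carry it, had a median difference of 1.42. Of these, 17 had an unadjusted p under 0.05 (6.05% of all genes, higher) and 6 were without overlap between groups (3.37% of all genes). The 15 also used by macrophages, platelets, lymphocytes or progenitors (among them Pecam1, Eng, Cd34, Vwf, S1pr1, Fli1, Tal1 and Lmo2) had a median of 0.52, with 6 at an unadjusted p under 0.05 and 4 without overlap, against the same shares of all genes. Per array, the 20 genes had medians of 2.02, 1.06, 2.03 and 0.08 in replicates A, E, F and H, and the 15 had 0.77, 0.32, 0.65 and −0.12. Signals of different probe sets cannot be set against each other, so no order of the genes by abundance is given.

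A list of endothelial genes outside the 35 also had its highest medians in replicates A and F and its lowest E2f3-deleted median in H. In a further list of 36 pan-endothelial genes, 34 were above 0 (41.8% of all genes) and 20 of them had an unadjusted p under 0.05 (6.05% of all genes), with 0 after adjustment and a median of 0.92. Its array medians were 1.40, 0.75, 1.36 and −0.02 in replicates A, E, F and H, against −0.22 to 0.26 in controls. Of its 3 genes with the highest mean signal, Sparcl1 differed by 1.50 (SE 0.246, adjusted p = 0.158) and Tm4sf1 by 1.36 (SE 0.395), both without overlap and both highest in replicate H (11.52 and 13.41), and the receptor Nrp1, which macrophages also express, by −0.08 (SE 0.0893).

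Lists for vessel types were less uniform. Their counts above 0 stand beside 41.8% of all genes. Genes of tip cells, the leading cells of sprouts, were above 0 in 10 of 11 with a median of 0.45, and were the one endothelial list in which replicate H had a high median (0.86, against 0.69, 0.34 and 0.89 in A, E and F). Its brightest genes, the basement membrane collagens Col4a1 and Col4a2, had differences of 1.34 and 1.42 and their highest values in replicate H, 13.26 and 11.48. Fibroblasts and pericytes also express both collagens. Of the 11 arterial genes 9 were above 0 (median 0.38), of the 7 venous genes 5 (median 0.67) and of the 7 capillary genes 6 (median 0.21). Fabp4, a fatty acid binding protein of capillaries and macrophages, had the largest value among the 3 brightest capillary genes, 2.0 (SE 0.528, adjusted p = 0.212). Kdr, the main VEGF receptor, had 1.10 (SE 0.306), and the brightest, Cd36, a fatty acid receptor, had 0.03 (SE 0.787). The lists share some genes, such as Nrp1, arterial and pan-endothelial, and Kdr, capillary and pan-endothelial.

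The genes nearest in pattern to the median of the tested endothelial genes, by root mean square difference over the 8 arrays, were Tmem88 (0.123 log2 units), Epas1 (0.127), Gm32688 (0.148), Exoc3l2 (0.174), Adgrf5 (0.177), Fgd5 (0.183), Septin4 (0.205) and Cavin2 (0.211). Exoc3l2 and Adgrf5 were already on the pan-endothelial list. These genes were picked by their values on the same 8 arrays, so their differences follow from that choice and only describe them. Epas1, the hypoxia-inducible factor HIF-2 alpha, averaged 11.17 in E2f3-deleted arrays and 9.90 in controls, a difference of 1.27 (SE 0.369). Cavin2, a coat protein of caveolae, differed by 1.48 (SE 0.386).

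Markers of other cells were read on the same arrays, since the sort was on F4/80 alone. Counts above 0 in these marker lists stand beside 41.8% of all genes. Markers of pericytes, the cells that wrap capillaries, were above 0 in 9 of 10 (median 0.78), with array medians of 1.26, 0.50, 1.07 and −0.17 in replicates A, E, F and H and −0.13 to 0.07 in controls. As for the 35 genes, A and F were highest, E lay between and H was lowest in the E2f3-deleted group, but control D was not the highest control. The brightest pericyte gene, Rgs5, had signals of 12.34, 11.53, 12.37 and 10.16 in E2f3-deleted arrays, against 10.40, 10.81, 10.34 and 10.74 in controls. The next brightest, Pdgfrb, had its highest value in replicate H (10.58) and differed by 0.92 (SE 0.251), and Abcc9 differed by 0.78 (SE 0.209). Cspg4, named after its value was seen, was the 1 pericyte gene below 0 (−0.54, SE 0.225). Smooth muscle markers had medians of 0.70, −0.05, 1.25 and −0.33, against −0.14 to 0.09 in controls, again highest in A and F.

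Platelet and megakaryocyte markers, which bear on Vwf, Pecam1 and Mmrn1, were above 0 in 6 of 13 with a median of −0.02, and their array medians ran from −0.20 to 0.03 in E2f3-deleted and −0.04 to 0.07 in control arrays. Pf4, which macrophages also express, differed by −0.18 (SE 0.273). Lymphatic endothelial genes had a median of 0.01 over 7 genes. The brightest, Lyve1, which some macrophages also carry, differed by −0.64 (SE 0.439), Pdpn by −0.47 (SE 0.211) and the VEGF-C receptor Flt4 by 0.73 (SE 0.296, adjusted p = 0.328). Macrophage markers were lower in 13 of 14, by a median of −0.13, with array medians of −0.18, −0.07, −0.08 and −0.15 in A, E, F and H, against −0.05 to 0.05 in controls.

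Fibroblast, mast cell and epithelial markers had other orders. Fibroblast medians were 0.88, −0.45, −0.15 and 1.94 in replicates A, E, F and H, against −0.73 to 0.45 in controls, with 10 of 10 genes above 0 over all arrays. Mast cell medians were 0.34, 1.18, −0.35 and 3.59, against −0.38 to 0.22, and 10 of 10 genes were above 0. Epithelial medians were 0.29, 0.72, 0.86 and −0.29, against −0.39 to 0.78, and 11 of 12 genes were above 0. T, NK and B cell markers had a median difference of −0.22 and neutrophil markers −0.01. The fibroblast, mast cell and epithelial lists did not have replicates A and F both highest, as the 35 genes, the pan-endothelial list and the pericyte list had. Whether cells of any of these kinds account for the signals was not tested.

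**Figure D4:**
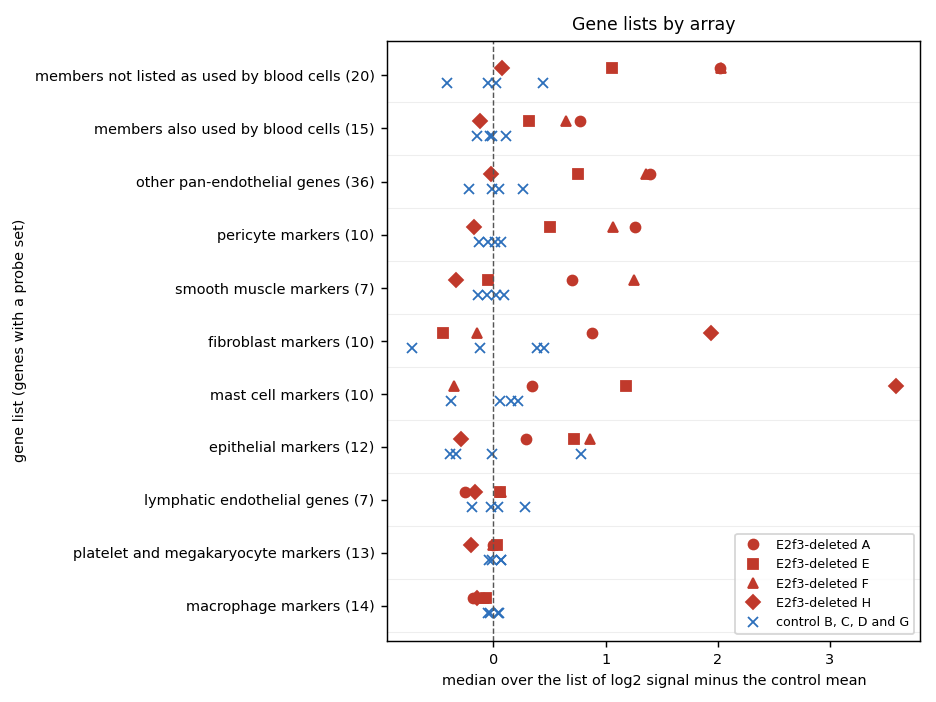
Each symbol is the median over a gene list of the log2 signal minus the control mean on 1 array, red for E2f3-deleted and blue crosses for control arrays. The 35 genes are shown as the 20 outside the blood cell list and the 15 within it. In both, and in the pan-endothelial and pericyte lists, replicates A and F lie to the right, E between and H near 0 (−0.17 for pericytes). Mast cell markers reach 3.59 in replicate H.

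Leaving out single arrays changed several of these counts. Without replicate H, 30 of the 35 genes were higher at an unadjusted p under 0.05 (7.68% of all genes) and 30 did not overlap (6.44% of all genes), with a median of 1.54. With all genes filtered as before, 1 of the 29 then passed the adjusted threshold, Aplnr (1.83, SE 0.186, limma adjusted p = 0.0322, range over all its alternatives 0.0322 to 0.923), among 14 genes called in all (0.128%). Without replicate E, Clec14a was the one called (1.98, SE 0.234, limma adjusted p = 0.0239, range 0.0239 to 0.893), among 60 genes (0.55%), and it is 1 of the genes that passed the filter only through their E2f3-deleted arrays. The count at an unadjusted p under 0.05 was 14 without replicate A (5.16% of all genes), 14 without replicate F (4.89%) and 14 without control replicate B (4.09%), against 23 with all arrays. Without control replicate D the groups did not overlap in 16 of the 35 genes (5.35% of all genes), against 10 with all arrays. With 4 arrays a group, the number of arrays limits the precision.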

How the data were processed

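Per the submitters' processing notes, the authors ran RMA, which corrects background, quantile-normalizes the arrays and sums up the probes. The deposited table holds the log2 result for 45101 probe sets on each of 8 arrays. The RMA version is not given in the sources used here. Quantile normalization hides any shift common to most genes.

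Probe sets were named from the platform annotation (34945 with 1 symbol, 932 with several, 9160 with none, 64 controls). Of the 35 genes, 16 had several probe sets, and in Cdh5, Ets1, Mmrn1 and Sox7 these had both signs. The groups follow the titles, and replicate letters are not shared, so no pairing was used. The largest share of identical values on a pair of arrays was 0.317%. Differences were fitted with limma 3.58.1 in R 4.3.3 (lmFit, eBayes, two-sided, Benjamini-Hochberg) and tested on simulated data. The genes and lists were chosen with earlier results of these data known. The genes named outside the 35 are the 3 highest in mean signal of each list, E2f3, Adgre1, Csf1r and the 8 nearest in pattern. Promoters are from RefSeq, GRCm38.p6. Alternatives were other filters, probe set means, median centring, array weights, a robust prior with a trend, leaving out each array, and grouping by scan file. The fits without the filter that leave out replicate H or group by scan file were added after seeing the data.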

Additional observations from a re-analysis of the deposited data

Results flagged for a closer look

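In 9 of 140 groups of 4 arrays, 1 value stood apart from the other 3 by Dixon's criterion, and chance gives about 1 in 20. Among the endothelial genes, Sox18 was high in control replicate D at 6.28 (others 5.73 to 5.80), Cd34 was high in control replicate D at 8.89 (others 8.08 to 8.14), Vwf was low in control replicate B at 6.80 (others 7.76 to 7.91) and S1pr1 was low in E2f3-deleted replicate H at 7.02 (others 8.17 to 8.30). Among the other genes named or read beside them, Cd36, a fatty acid receptor of capillaries and macrophages, was low in replicate H at 7.64 (others 10.15 to 10.66), and Itga2b, an integrin of platelets and mast cells, was high there at 8.29 (others 7.29 to 7.43). The mast cell proteases Cpa3 and Cma1 were low in control replicate D at 6.56 and 6.30, and Cavin2 was low in control replicate B at 7.82.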

How the results depend on the processing

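Of the 29 endothelial genes that passed the filter, 26 were higher. With the filter at the 60th percentile, 12 remained in the test and 9 were higher. The count past the adjusted threshold, 0 in the full fit and under every alternative that kept all 8 arrays, ran from 0 to 1 with single arrays left out. With no filter and without E2f3-deleted replicate H, an alternative chosen after seeing the data, it was 1. The median difference of the tested genes was 1.23, and 0.12 with arrays grouped by their scan files (0.08 with no filter, also chosen after seeing the data). That grouping turned 5 genes negative, Esam (−0.05), Eng (−0.05), Sox17 (−0.09), Vwf (−0.37) and Procr (−0.29). S1pr1 was 0.09 with array weights and ran from −0.26 to 0.17 with single arrays left out, and Tal1 from −0.01 to 0.23. The cause was not tested. Genes at an unadjusted p under 0.05 (limma) are counted over all 35 with no filter. Emcn, Robo4, Erg, Sox18, Sox7 and Clec14a passed the filter only through their E2f3-deleted arrays, which favours higher counts among the tested genes. With all 8 arrays, 23 of the 35 were higher at that level (6.05% of all genes). Dropping H raised this to 30 (7.68%), and dropping A, F or control B lowered it to 14 each (5.16%, 4.89% and 4.09%). Grouping by scan file letter left 0. No paired analysis was possible because the groups share no replicate letters. Mmrn1 and Stab2, with mean signals of 4.12 and 4.99, lay under the filter on every array, near the bottom of the scale.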
